A study of Mus musculus with 5 samples.

Results

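Ebf1, Cited4, Elavl2, Krt20 and Cyp2c55 are 5 genes grouped here as unusual for the T cell lineage. Their brightest probe sets gave a higher array signal in the insulin-specific CD8 T cell clone G9C8 than in cells of NOD.G9C8 transgenic mice. The 5 genes were chosen for that difference. Their levels in this comparison are therefore described, with no test. On the array 14 of 45037 probe sets other than controls carry exactly 1 gene symbol equal to one of these names, and the 5 genes stand among 18193 genes so measured. The clone group is 3 arrays, from 3 separately frozen vials of G9C8, and the labels give no strain for it. The transgenic group is 2 arrays, from splenocytes of 2 separate NOD.G9C8 mice on the NOD/LtJ background, 4 to 8 weeks old. The labels name neither the promoter of the transgene nor a sort of CD8 T cells between culture and extraction. Both groups were stimulated with an insulin B chain peptide (10 µg/ml, 3 days), and a rest of 2 days in the T cell growth factor IL2 at 5 IU/ml followed. The vials are of 1 clone, so the spread among them is not the spread between clones.

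The products of the 5 genes are given as background. Ebf1 encodes a transcription factor that commits progenitors to the B cell lineage. Cited4 encodes a transcriptional co-regulator that binds the acetyltransferases CBP and p300, the products of Crebbp and Ep300. Elavl2 encodes a neuronal RNA-binding protein of the Hu family, which binds AU-rich elements of messenger RNA. Krt20 encodes a type I keratin, an intermediate filament protein of gut epithelium. Cyp2c55 encodes a cytochrome P450 enzyme of the CYP2C group, which oxidises fatty acids and drugs in gut and liver.

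T cell markers were bright in both groups, and 4 were called lower in the clone. The summed signal of 9 measured T cell markers was 83815 to 91137 in the mouse cultures and 65728 to 75901 in the vials. Of 8 tested, limma called 0 higher, also at an unadjusted p under 0.05, and 4 lower, Cd2 (-1.75, adjusted p = 1.65e-05), Cd8a (-0.68, adjusted p = 0.000865), Cd8b1 (-0.65, adjusted p = 0.000359) and Cd3d (-0.49, adjusted p = 0.00828). Over all genes tested 22% were called higher and 21.7% lower. Cd3e, part of the T cell receptor complex, had signals of 4879 to 5325 in the mouse cultures and 5323 to 6498 in the vials. Cd8a gave 12884 to 15500 and 8252 to 9188 on its brightest probe set, while 2 of its 5 probe sets had every vial above both mice. Cd4 did not exceed 50.6 on any array. The summed signal of 10 measured B cell markers ranged from 8876 to 11159 in the mouse cultures and from 4514 to 6131 in the vials. Ighm and Cd79b carried that gap, and the other 8 summed to 1238 to 1326 and 1033 to 1424, which overlap. The sum takes the brightest probe set of Ighm, while 3 of its 11 probe sets had every vial above both mice. For 10 myeloid markers the sums were 6194 to 9480 and 1149 to 1343, and for 7 dendritic cell markers 7605 to 8488 and 874 to 979. Most of the dendritic sum in the mouse cultures came from Ccr7, which T cells also make, and the other 6 summed to 971 to 1498 and 704 to 732. In these bulk cultures fewer cells of a type and less RNA per cell cannot be told apart.

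Promoter sequences of the genes are shown first because they differ in one plain feature, the TATA box, at which many genes with a single sharp start of transcription place their polymerase. RefSeq (GRCm38.p6) gives 11 start windows for the 5 genes, 6 of them for Elavl2 and 2 for Ebf1. Each window printed whole holds the 250 bases before the start, 5′ to 3′ on the strand of the gene, and capitals mark the letters TATAAA. They lie at chr4:120666313-120666562 (+) for Cited4, chr11:99438154-99438403 (-) for Krt20 and chr19:39006769-39007018 (+) for Cyp2c55.
Cited4: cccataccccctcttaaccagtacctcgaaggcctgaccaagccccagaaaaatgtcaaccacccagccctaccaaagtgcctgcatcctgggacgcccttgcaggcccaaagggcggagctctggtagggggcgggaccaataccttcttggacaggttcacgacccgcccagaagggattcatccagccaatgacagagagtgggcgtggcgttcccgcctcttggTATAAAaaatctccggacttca
Krt20: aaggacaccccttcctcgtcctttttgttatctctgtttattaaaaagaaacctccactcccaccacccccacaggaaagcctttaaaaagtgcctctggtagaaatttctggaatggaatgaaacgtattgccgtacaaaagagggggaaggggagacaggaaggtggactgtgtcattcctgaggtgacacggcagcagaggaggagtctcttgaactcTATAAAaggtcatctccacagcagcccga
Cyp2c55: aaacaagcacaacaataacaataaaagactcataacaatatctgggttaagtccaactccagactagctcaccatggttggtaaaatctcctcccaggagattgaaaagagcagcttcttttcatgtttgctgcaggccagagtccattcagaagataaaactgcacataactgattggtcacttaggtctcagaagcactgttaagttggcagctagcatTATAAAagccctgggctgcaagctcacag
The letters TATAAA were found in the windows of these 3 genes, which have 1 start each, and in 0 of the windows of Ebf1 and Elavl2. They begin 22 bases before the start in Cited4 and 29 bases before it in both Krt20 and Cyp2c55. Over 32851 RefSeq windows of the same length, 12.4% hold TATAAA on either strand. On the strand of the gene, 1.99% hold it at 20 to 40 bases before the start, a range chosen after the windows were seen. A match describes the letters and does not show use of a site.

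Other features of the windows varied among the genes. The Cyp2c55 window has 0 CG dinucleotides and that of Krt20 has 5, against a median of 6 over all windows. Cited4 has 10, Ebf1 has 9 and 14, and the Elavl2 windows have 10 to 21. Both strands were searched for 5 further motifs, none of which contains another or TATAAA. The RUNX core TGTGGT, which 14.0% of all windows hold, was found in 1 Ebf1 window. The EBF palindrome, TCCC and GGGA with 2 bases of any kind between them (0.779% of all windows), and the AP-1 element TGANTCA (6.75%) were found in 0 of the 11 windows. CCAAT (33.8% of all windows) was found in Cited4, Cyp2c55 and some Elavl2 windows, and the GC box GGGCGG (32.7%) in Cited4 and some Elavl2 windows.

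Of the 14 probe sets, 10 had every clone array above both transgenic arrays, 4 overlapped between the groups and 0 lay below. Over all probe sets 24.6% had every clone array above. Because the genes were chosen on this contrast, nothing is read from that count. The filter on dim signals used below, a mean of at least 88.2 over the 5 arrays, was passed by 9 of the 14 probe sets, covering all 5 genes. For the brightest probe set of each gene the groups were separate in 5 of 5, and for the other probe sets in 5 of 9. None of the 14 is of the types marked as able to bind several genes (0 with the ending _x_at or _s_at). Differences below are between group means of log2(signal + 20), clone minus transgenic, and ranks count down from the largest difference over the 45037 probe sets. The added 20 keeps dim probe sets from giving very large ratios and understates their differences.

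**Figure D1:**
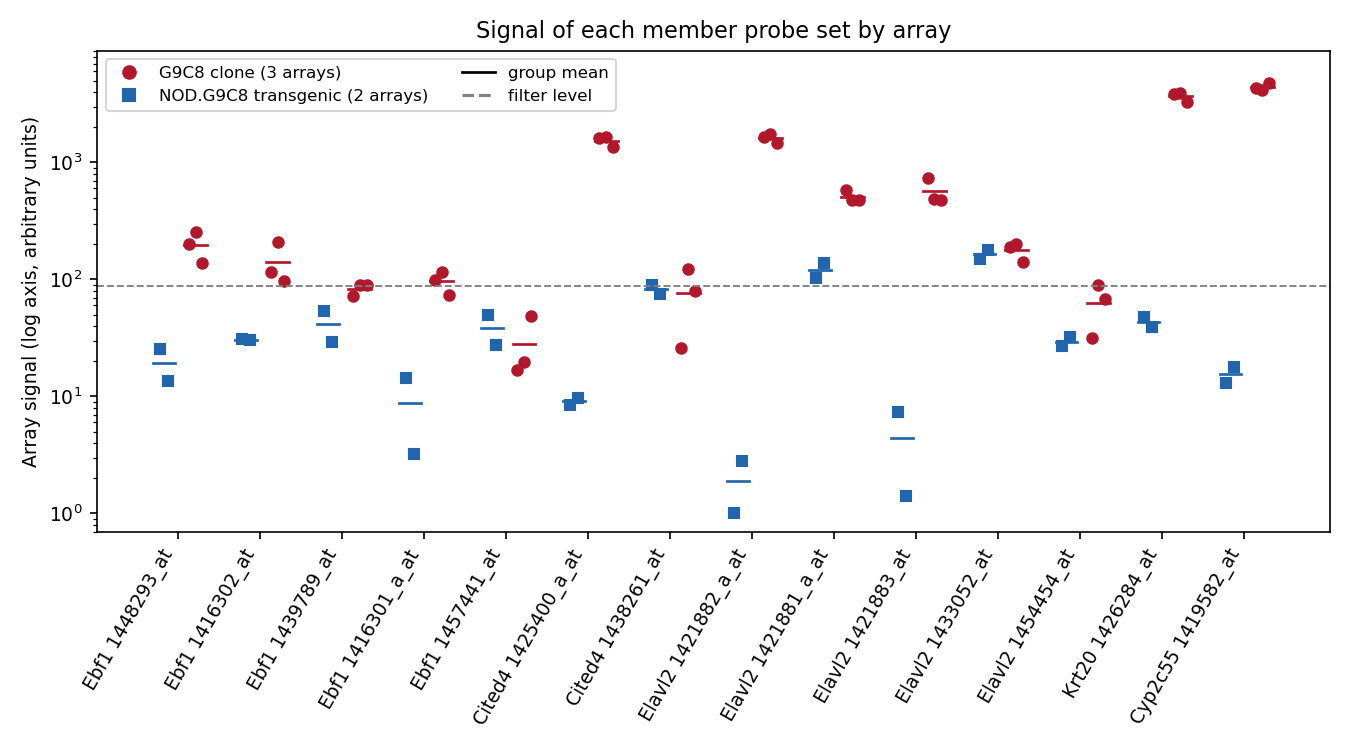
Signal of each of the 14 probe sets on each array, on a log axis in arbitrary units of the deposited scaling; circles are the 3 clone arrays, squares the 2 transgenic arrays, short lines the group means, and the dashed line the filter level of 88.2. The clone and transgenic points are apart in 10 probe sets and overlap in the last Ebf1, the second Cited4 and the last 2 Elavl2 probe sets.

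Ebf1 showed the smallest difference of the 5 genes. Its brightest probe set, 1448293_at, read 25.3 and 13.5 in the mouse cultures and 200.5, 252.6 and 138 in the vials. All 3 vials stood above both mice, with means of 197 ± 57.4 (SD, n = 3) and 19.4 ± 8.34 (SD, n = 2). The difference was 2.44, at rank 301. Probe set 1416302_at read 30.9 and 30.2 against 115.6, 208.8 and 96.1, a difference of 1.60 at rank 841. Probe set 1416301_a_at read 14.5 and 3.2 against 99.7, 114.6 and 74.2, a difference of 2.02 at rank 474. These 3 were designed on 1 source sequence and so are not independent readings. In each of them vial 2 was highest and vial 3 lowest. Probe set 1439789_at, on another sequence, was also separate, with 54.2 and 29.3 against 72, 89 and 88.8, a difference of 0.77 at rank 4141. The remaining one, 1457441_at, overlapped, with 49.8 and 27.6 against 16.8, 19.6 and 48.3.

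None of the tested genes that EBF1 is known to switch on in B cells was called higher in the clone. Of 16 such genes 15 had a named probe set and 9 passed the filter. Of these 9, 0 were called higher in the clone, 3 were called lower and 6 were not called, with a median difference of -0.13. At an unadjusted limma p under 0.05 the counts were also 0 higher and 3 lower. Calls are from limma across all genes tested, at an adjusted p under 0.05 after Benjamini-Hochberg adjustment. Over all 12446 genes tested 43.8% were called, 22% higher and 21.7% lower, and the median difference was -0.01. Without the filter 1 of the 15 (6.67%) was called higher and 3 (20%) lower, beside 14.6% and 14.7% of all genes.

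Cd79b, the signalling partner of the B cell receptor, read 654.5 and 594 in the mouse cultures and 31.5, 2.7 and 46 in the vials. It fell by 3.92 on the log2 scale (SE 0.43, limma adjusted p = 0.000164). Pou2af1, a co-activator of immunoglobulin genes, read 413.2 and 334.7 against 11.5, 27.1 and 32.4, lower by a log2 difference of -3.20 (SE 0.32, limma adjusted p = 9.74e-05). Foxo1, a transcription factor of both B and T cells, read 3490.2 and 3098.6 against 941.9, 1794.1 and 1804.5. Its difference was -1.17 (SE 0.26, limma adjusted p = 0.00610). In all 3 genes every vial lay below both mice, and Cd79b and Pou2af1 passed the filter through the transgenic arrays alone. Pax5, the B lineage factor that acts beside EBF1, was not called on its brightest probe set, with 139.7 and 249.1 against 239.4, 147.8 and 264.6 and a difference of 0.16 (95% confidence interval -0.53 to 0.85). Pax5 and Igll1 each had 1 of 2 probe sets with every vial above both mice. Cd22, Fcrla, Foxo1 and Cd40, which also have several probe sets, had 0 such. Igll1 was not called (0.73, 95% confidence interval -0.66 to 2.12), and its difference was 1.78 without transgenic array 2. Of the 16 genes 8 are also on the B cell marker list, whose sum was lower in the clone through Ighm and Cd79b, as given above. The part of B cells among the splenocytes in these differences was not tested.

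The other EBF genes were dim. Ebf2, Ebf3 and Ebf4 lay under the filter, with no clone array above 70.2 and no transgenic array above 85.7. Of 15 relatives and partners of EBF1 in B lineage commitment, 6 were tested, of which 0 were called higher by limma (also 0 at an unadjusted p under 0.05), 2 lower and 4 not called, with a median difference of -0.46. The shares over all genes tested were 22% higher and 21.7% lower. Tcf12, an E protein, went from 6403.5 and 6024 to 3782.1, 4425.6 and 3919.1, a difference of -0.62 (SE 0.10, limma adjusted p = 0.00107). That is its brightest probe set, and 1 of the 5 probe sets of Tcf12 had every clone array above both transgenic arrays. Ikzf1, which encodes Ikaros, went from 7655.3 and 8509.2 to 5219.2, 5819.8 and 4852.9, a difference of -0.61 (SE 0.10, limma adjusted p = 0.00160). Runx1, whose product binds the RUNX core, had probe sets that disagreed. Its brightest, 1452531_at, overlapped between the groups (difference -0.20), while the other 5 of 6 had every clone array above, by 0.70 to 2.51. With the mean over its probe sets that passed the filter Runx1 was called higher, at 1.10 (limma adjusted p = 0.00472).

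Cited4 was dim in both mice and bright in all vials. Probe set 1425400_a_at read 8.4 and 9.7 in the mouse cultures and 1600.4, 1648.8 and 1355.3 in the vials. The means were 9.05 ± 0.919 (SD, n = 2) and 1535 ± 157 (SD, n = 3), a difference of 5.74 at rank 11. The other probe set, 1438261_at, did not repeat this. It read 90.3 and 74.6 in the mouse cultures and 25.7, 123.8 and 79.9 in the vials, a difference of -0.23 at rank 30246. Cited4 therefore rests on 1 of its 2 probe sets.

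Among 12 relatives and partners of CITED proteins, 10 were tested, of which limma called 2 (20%) higher, 0 lower (1 at an unadjusted p under 0.05) and left 8 uncalled, with a median difference of -0.00. The shares over all genes tested were 22% higher and 21.7% lower. Lhx2, a LIM homeodomain factor, read 66.1 and 46.2 against 229.6, 159 and 211.1, a rise of 1.53 (SE 0.26, limma adjusted p = 0.00171), and passed the filter only through the clone. Hif1a, the hypoxia factor that competes with CITED proteins for CBP and p300, read 8006.1 and 7578.2 against 9711.6, 11371.7 and 11763.6, a rise of 0.49 (SE 0.10, limma adjusted p = 0.00472). Only 2 of the 4 probe sets of Hif1a had every vial above both mice. Crebbp differed by -0.03 (95% confidence interval -0.30 to 0.24) and Ep300 by -0.26 (-0.48 to -0.04, limma adjusted p = 0.0613), and neither was called. Cited1 was under the filter, at most 26.8 on any array. Cited2 was not called on its brightest probe set, 1452207_at, with 1596.1 and 1781.1 against 2199.9, 1738.6 and 1707.6. On its other probe set, 1421267_a_at, every vial was above both mice, with 491.3 and 445.1 against 1388.6, 1219.4 and 950.1. With the mean over both, Cited2 was called higher, at 0.72 (limma adjusted p = 0.00326).

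Elavl2 was dim in both mice and bright in all vials on its brightest probe set. Probe set 1421882_a_at read 1 and 2.8 in the mouse cultures and 1660.2, 1740.6 and 1453.3 in the vials. The means were 1.90 ± 1.27 (SD, n = 2) and 1618 ± 148 (SD, n = 3), and the difference on the log2(signal + 20) scale was 6.22, at rank 7. Probe set 1421883_at read 7.4 and 1.4 against 734.4, 482.2 and 477.3, a difference of 4.57 at rank 36. Probe set 1421881_a_at read 102 and 137.3 against 585.9, 472.6 and 474, a difference of 1.93 at rank 524. All 3 separate the groups and were designed on 1 source sequence, yet their differences range from 1.93 to 6.22. The remaining 2 probe sets, designed on another sequence, overlapped. Of these, 1433052_at read 150.6 and 178.9 against 189.8, 200 and 142.2, and 1454454_at read 26.8 and 32.1 against 31.8, 90.4 and 67.9.

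No tested gene on the list of its relatives and of neuronal genes was called. Of 18 genes of the ELAV family and of neurons, 7 were tested, and limma called 0 higher (2 at an unadjusted p under 0.05) and 0 lower, with a median difference of 0.15. In the limma fit without the filter 1 of 18 was called higher and 1 lower (5.56% each), beside 14.6% and 14.7% of all genes. Elavl1, the family member made in most cell types, read 1957.8 and 2164.7 against 2023, 1763.1 and 2046.4, a difference of -0.08 (95% confidence interval -0.33 to 0.16). Rbfox3, a neuronal splicing factor, differed by 0.15 (-0.30 to 0.61). Elavl3, named after its values were seen, was called under some alternatives. It read 33.4 and 191.1 in the mouse cultures and 188.4, 252.4 and 205.1 in the vials, a difference of 1.14 (limma adjusted p = 0.0954), and was called without transgenic array 2 (2.13, limma adjusted p = 0.00207) and with the replicate block (1.17, limma adjusted p = 0.0294). The synaptic vesicle genes Syn1 and Syp were called higher, respectively, without transgenic array 1 (1.39, limma adjusted p = 0.00634) and without clone array 1 (0.68, limma adjusted p = 0.0461). Elavl4 was under the filter, with 80.4 and 83.1 against 33.5, 22.6 and 8.9.

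Krt20 has 1 probe set, 1426284_at. It read 47.3 and 39.2 in the mouse cultures and 3866.9, 3927.5 and 3263.1 in the vials. All vials stood far above both mice, with means of 3686 ± 367 (SD, n = 3) and 43.3 ± 5.73 (SD, n = 2) and a difference of 5.87 at rank 10. Keratins of simple epithelia that usually accompany it were not called on their brightest probe sets. Krt8 read 123.1 and 168.5 against 204.7, 149.5 and 186.3, a difference of 0.28 (limma adjusted p = 0.369). A dimmer Krt8 probe set, 1435989_x_at, of a type able to bind several genes, had every vial above both mice, with 7.5 and 8.3 against 13, 101.3 and 55.2, and its remaining one overlapped. Krt18, its filament partner, read 110.8 and 85.5 against 98.4, 56.8 and 192.7, a difference of 0.08 (limma adjusted p = 0.889). Krt19 was under the filter, at most 19.7 on any array.

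Of the 21 genes listed as keratins and their partners 11 were tested, of which limma called 3 (27.3%) higher, 0 lower (1 at an unadjusted p under 0.05) and left 8 uncalled, with a median difference of 0.13. The shares over all genes tested were 22% higher and 21.7% lower. The 3 called higher were Krt10, Krt12 and Krt23, and all 3 lie within a few genes of Krt20 on chromosome 11. Krt10, a keratin of differentiating epidermis, read 132.5 and 102.6 in the mouse cultures and 637.3, 1146.4 and 680 in the vials. The difference was 2.57 (SE 0.25, limma adjusted p = 9.42e-05). Krt12, a keratin of corneal epithelium, read 24.7 and 63.5 against 288.1, 276.2 and 172.4, a difference of 2.09 (SE 0.34, limma adjusted p = 0.00138). Its second probe set, 1419230_at, read 5 and 12 against 207.3, 204.7 and 165.8. Krt23, a type I keratin of epithelia, read 15 and 17.4 against 159.6, 155.1 and 109.5, a difference of 2.14 (SE 0.31, limma adjusted p = 0.000708). In each of the 3, every vial was above both mice. Krt12 and Krt23 passed the filter only through the clone, so they had to differ, and the count of 3 is not support for a pattern. In the limma fit without the filter, which tests all 21, 3 (14.3%) were called higher and 0 lower. This was near the share of all genes called higher, 14.6%, while 14.7% of all genes were called lower. The 14 other keratins on the list had differences of -0.22 to 0.48, and limma called 0 of the 7 tested, also at an unadjusted p under 0.05. Krt24 to Krt28 and Krt222, near Krt20 and not on the list, lay under the filter, with differences of -0.27 to 0.25.

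**Figure D2:**
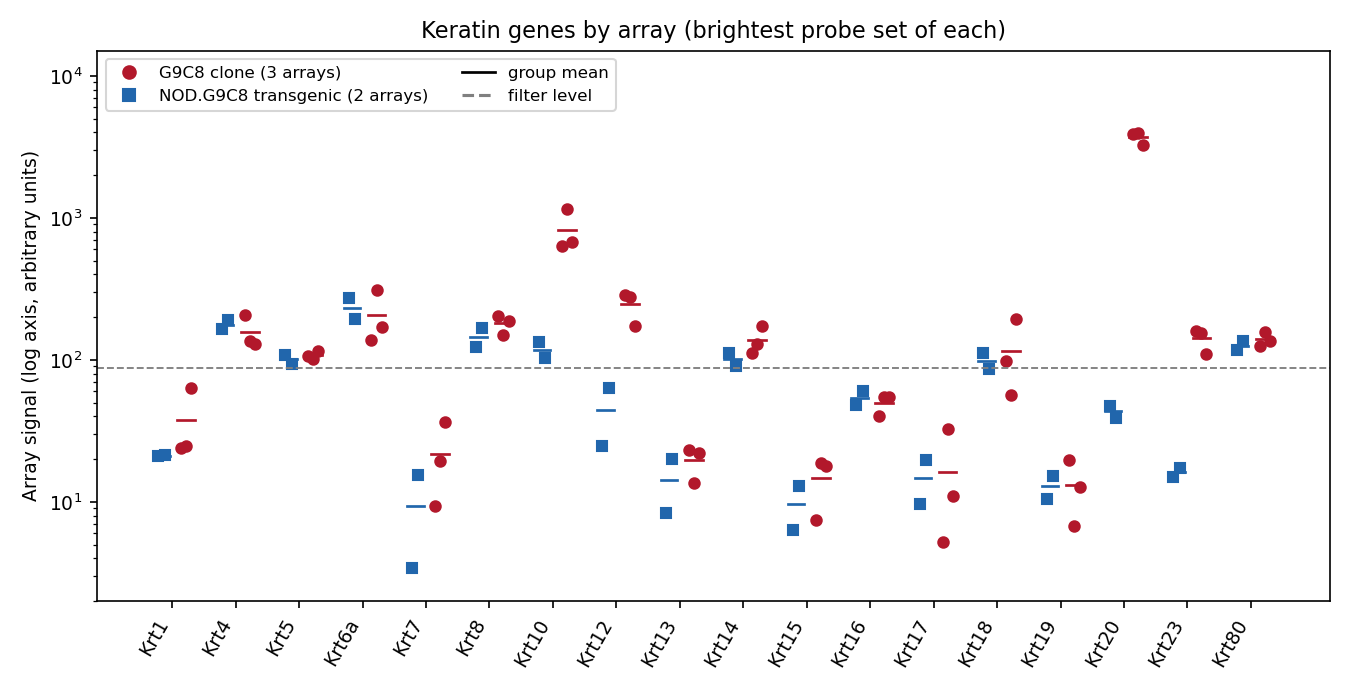
Signal of Krt20 and the 17 other keratins on the list on each array, 1 probe set per gene, on a log axis in arbitrary units. Circles are clone arrays, squares transgenic arrays, short lines group means and the dashed line the filter level. Krt10, Krt12, Krt20 and Krt23 have all 3 clone arrays above both transgenic arrays by a wide gap, while Krt8 and Krt18 overlap on the probe sets shown.

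The promoters of the neighbouring keratins are shown beside that of Krt20 because 2 of the 3 share its TATAAA at a like place. The last 60 bases before the start are printed, 5′ to 3′ on the strand of the gene, from RefSeq windows at chr11:99389365-99389614 (-) for Krt10 and chr11:99422260-99422509 (-) for Krt12, with TATAAA in capitals.
Krt10: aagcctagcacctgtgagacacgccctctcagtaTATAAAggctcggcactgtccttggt
Krt12: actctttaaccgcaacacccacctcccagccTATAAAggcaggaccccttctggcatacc
The letters begin 26 bases before the start in Krt10 and 29 bases before it in Krt12. The Krt23 window holds 0 copies. Krt10 has 2 CG dinucleotides in its whole window, Krt12 has 6 and Krt23 has 5.

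Cyp2c55 had the largest difference of the 5 genes at the pseudocount of 20, also on 1 probe set. With a pseudocount of 1 the order turned, at 8.09 for Cyp2c55 and 9.19 for Elavl2. Probe set 1419582_at read 13 and 17.8 in the mouse cultures and 4346.2, 4193.5 and 4769.3 in the vials. The means were 15.4 ± 3.39 (SD, n = 2) and 4436 ± 298 (SD, n = 3), a difference of 6.98 at rank 4. Its relatives did not share this difference. The 10 other measured Cyp2c genes reached at most 222.7 on a clone array and 345.7 on a transgenic array, with differences of -0.67 to 0.95. Cyp2c65, the next gene along from Cyp2c55, was under the filter, with 5.9 and 44.6 against 46.5, 37.7 and 47.9.

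Of 27 genes of the CYP2C group and of drug metabolism 22 had a named probe set and 15 were tested. Of these 2 (13.3%) were called higher, 3 (20%) lower and 10 not called, beside 22% and 21.7% of all genes tested. The median difference was -0.10. Cyp2c68 read 96.7 and 94.8 against 186.4, 203.1 and 222.7, a rise of 0.95 (SE 0.20, limma adjusted p = 0.00571). Cyb5a, which encodes the electron carrier cytochrome b5 and is named after its values were seen, read 3023.4 and 3039.7 against 4350.9, 4507.6 and 4410.1, a rise of 0.54 (SE 0.08, limma adjusted p = 0.000858). Ephx1, the microsomal epoxide hydrolase, read 821 and 598.5 against 144, 119.5 and 185.9, a difference of -2.11 (SE 0.22, limma adjusted p = 0.000129). Cyp3a11, a drug-metabolising P450, was called lower at -1.02 (limma adjusted p = 0.0210) and passed the filter through the transgenic arrays alone. Its call ended without transgenic array 1 (adjusted p = 0.0506) or transgenic array 2 (adjusted p = 0.158). Cyp2c38 was called lower at -0.67 (limma adjusted p = 0.0384) and kept the call in 6 of the 13 alternative fits that tested it. Leaving out transgenic array 2 gave -0.36 (adjusted p = 0.335), and leaving out any 1 clone array gave an adjusted p of 0.0573 to 0.0812.

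Markers of gut epithelium and liver were set beside Krt20 and Cyp2c55. The summed signal of 10 intestinal markers was 1012 to 1068 in the vials and 1296 to 1367 in the mouse cultures. Of 4 tested, limma called 0 higher, also at an unadjusted p under 0.05, and 1 lower, Lgals4 (-0.85, limma adjusted p = 0.00246). The shares over all genes tested were 22% higher and 21.7% lower. Vil1, which encodes the brush border protein villin, was between 2.9 and 9.3 on every array, and no marker on these lists was listed at 0. The sum of 8 measured hepatocyte markers was 540 to 636 in the vials and 665 to 708 in the mouse cultures, and Alb was between 97.7 and 162.6 on every array.

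Stromal markers went the other way in part. The summed signal of 10 was 15290 to 17197 in the vials and 14089 to 15708 in the mouse cultures, most of it from Thy1, which T cells also make. Of 6 tested, limma called 2 higher in the clone, which passed the filter only through it, and 0 lower, also at an unadjusted p under 0.05. The shares over all genes tested were 22% higher and 21.7% lower. Dcn, which encodes the matrix protein decorin, read 19.7 and 51.1 against 167.7, 203.5 and 208 (2.00, limma adjusted p = 0.00108). Lum, which encodes lumican, read 82.4 and 74.6 against 326.2, 148.5 and 574.3 (1.73, limma adjusted p = 0.0138). Their part in the levels of the 5 genes was not tested.

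Across the 6 related lists together, 103 of 109 genes had a named probe set and 58 were tested. Of these 7 (12.1%) were called higher and 8 (13.8%) lower, with a median difference of -0.05, beside 22% and 21.7% of all genes tested. In the limma fit without the filter, 9 of 103 (8.74%) were called higher and 8 (7.77%) lower, beside 14.6% and 14.7% of all genes.

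**Figure D3:**
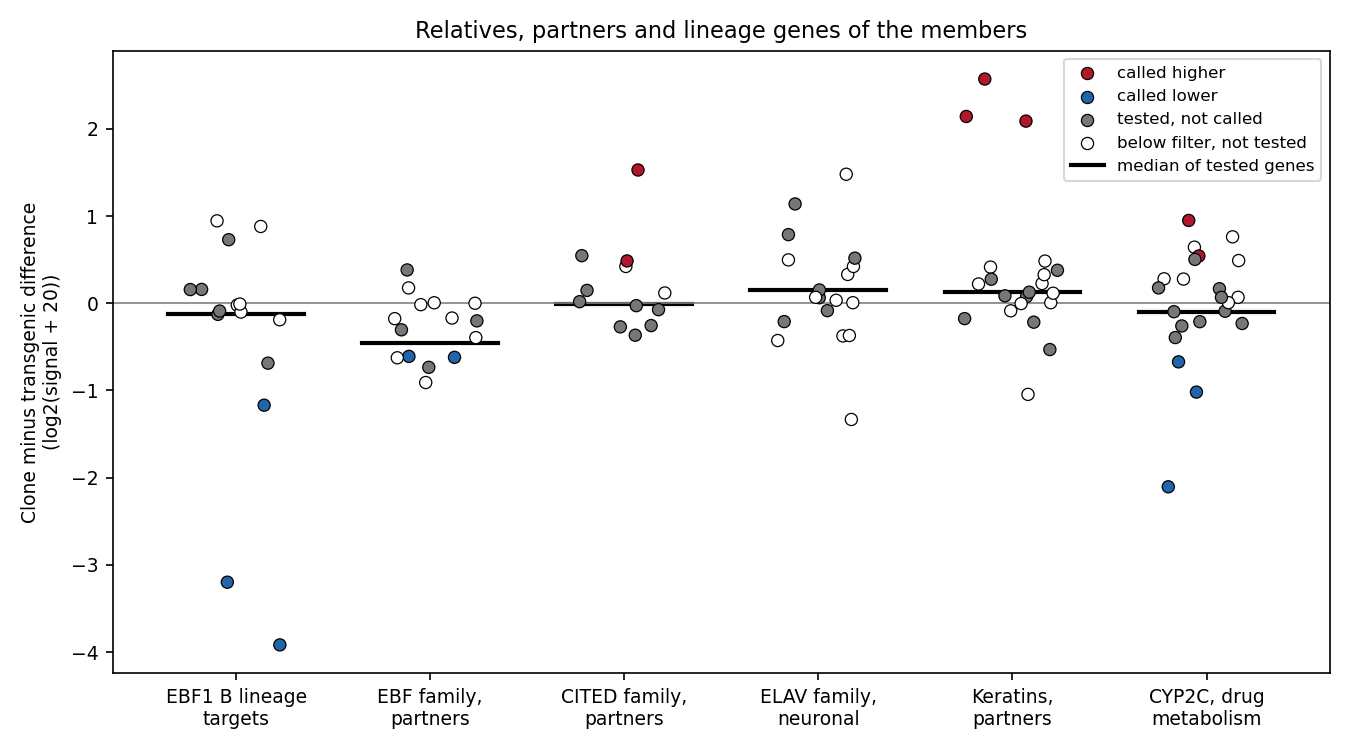
Difference of mean log2(signal + 20), clone minus transgenic, of each measured gene of the 6 related lists; each point is a gene, coloured by its call, open points lie below the filter, and black lines are medians of tested genes. The medians lie between -0.46 and 0.15, and the 3 called keratins stand above 2.

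The spread among the 3 vials was near that of like probe sets for 4 of the 5 genes. On the log2(signal + 20) scale the brightest probe set of Cyp2c55 ranged over 0.18 among vials, where probe sets of like clone signal had a median range of 0.20. The ranges were 0.27 for Krt20 (median 0.20), 0.26 for Elavl2 (median 0.23) and 0.28 for Cited4 (median 0.24). Ebf1 varied more, over 0.79 where the median was 0.40. Vial 3 was lowest in the brightest probe sets of Ebf1, Cited4, Elavl2 and Krt20 and highest in that of Cyp2c55.

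Genes next to each of the 5 were examined to see whether neighbours on the chromosome moved with them. Of 50 protein-coding neighbours, 5 on each side, 40 had a named probe set and 27 were tested. Of these 5 (18.5%) were called higher and 9 (33.3%) lower, with a median difference of -0.26, beside 22% and 21.7% of all genes tested. In the limma fit without the filter 5 of 40 (12.5%) were called higher and 8 (20%) lower, beside 14.6% and 14.7% of all genes. The neighbours of Krt20 were 3 of the 5 called higher, the keratins given above. Its other measured neighbours, Krt26, Krt27 and Krt28, were under the filter. With 15 genes on each side, a width chosen after the data were seen, 64 were tested, of which 13 (20.3%) were called higher and 19 (29.7%) lower. The shares over all genes tested, 22% and 21.7%, stand beside these counts and beside those near each gene below. Within that width no further neighbour of Krt20 was called higher.

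Mtap, 5 genes from Elavl2, had the largest rise among the called neighbours. It encodes the methylthioadenosine phosphorylase of the methionine salvage pathway. Mtap read 411 and 530.6 in the mouse cultures and 4697.4, 4423.7 and 5152.4 in the vials, a difference of 3.29 (SE 0.13, limma adjusted p = 6.46e-07). All 4 of its probe sets had every vial above both mice, by 1.69 to 3.29. None of the measured genes between was called. Cdkn2a, which encodes cell cycle inhibitors, read 90.5 and 69.5 against 58.5, 50.7 and 70.3, and Cdkn2b read 28 and 21.9 against 15.7, 4.8 and 16, both under the filter. Zfp352, next to Elavl2 on that side, was not called (-0.13, limma adjusted p = 0.717). On the far side Izumo3 was at most 7.5 on any array. Beyond it Tusc1 read 220.8 and 307.9 against 49.2, 17.4 and 22.2, a difference of -2.56 (limma adjusted p = 0.000602, with the filter passed through the transgenic arrays alone), and Plaa differed by -0.53 (limma adjusted p = 0.00246). With the mean over its probe sets that passed the filter, Plaa was not called (-0.30, limma adjusted p = 0.0790). Of the 4 probe sets of Plaa, 1 had every vial above both mice.

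Both direct neighbours of Ebf1 were called lower. Rnf145, which encodes a ubiquitin ligase, read 4984.7 and 4712.1 against 1439.9, 1431.6 and 1097.6, a difference of -1.87 (SE 0.13, limma adjusted p = 1.53e-05). Clint1, a clathrin adaptor gene, differed by -0.40 (limma adjusted p = 0.0128), a call that ended without transgenic array 1 (adjusted p = 0.0548) or 2 (adjusted p = 0.0902). Adam19, a metalloprotease gene 5 places away, differed by -0.73 (limma adjusted p = 0.00824), and this call ended without transgenic array 2 (adjusted p = 0.0721). Of 7 tested neighbours of Ebf1, limma called 0 higher, also at an unadjusted p under 0.05.

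Near Cited4, Ctps, which encodes CTP synthase, was called higher and Scmh1, a Polycomb group gene, lower. Ctps read 506.5 and 543.3 against 923.6, 651.9 and 976.4, a rise of 0.66 (limma adjusted p = 0.0167). That call ended without either transgenic array (adjusted p = 0.0997 and 0.0610), without clone array 1 (adjusted p = 0.0549) and without clone array 3 (adjusted p = 0.0503). Scmh1 differed by -1.06 (limma adjusted p = 0.00649) and was not called without transgenic array 1 (-0.81, adjusted p = 0.0838). Nfyc, the nearest measured gene on the other side, was not called (-0.11, limma adjusted p = 0.480).

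Around Cyp2c55 limma called 0 of 6 tested neighbours higher, also at an unadjusted p under 0.05, and 3 lower. Hells, a chromatin remodelling gene next to it, read 2100.3 and 1946.6 against 1254.8, 733.5 and 1175.1, a difference of -0.96 (SE 0.21, limma adjusted p = 0.00585). Slc35g1, a transporter gene, differed by -1.19 (limma adjusted p = 0.000447), and Cyp2c38 is given above.

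**Figure D4:**
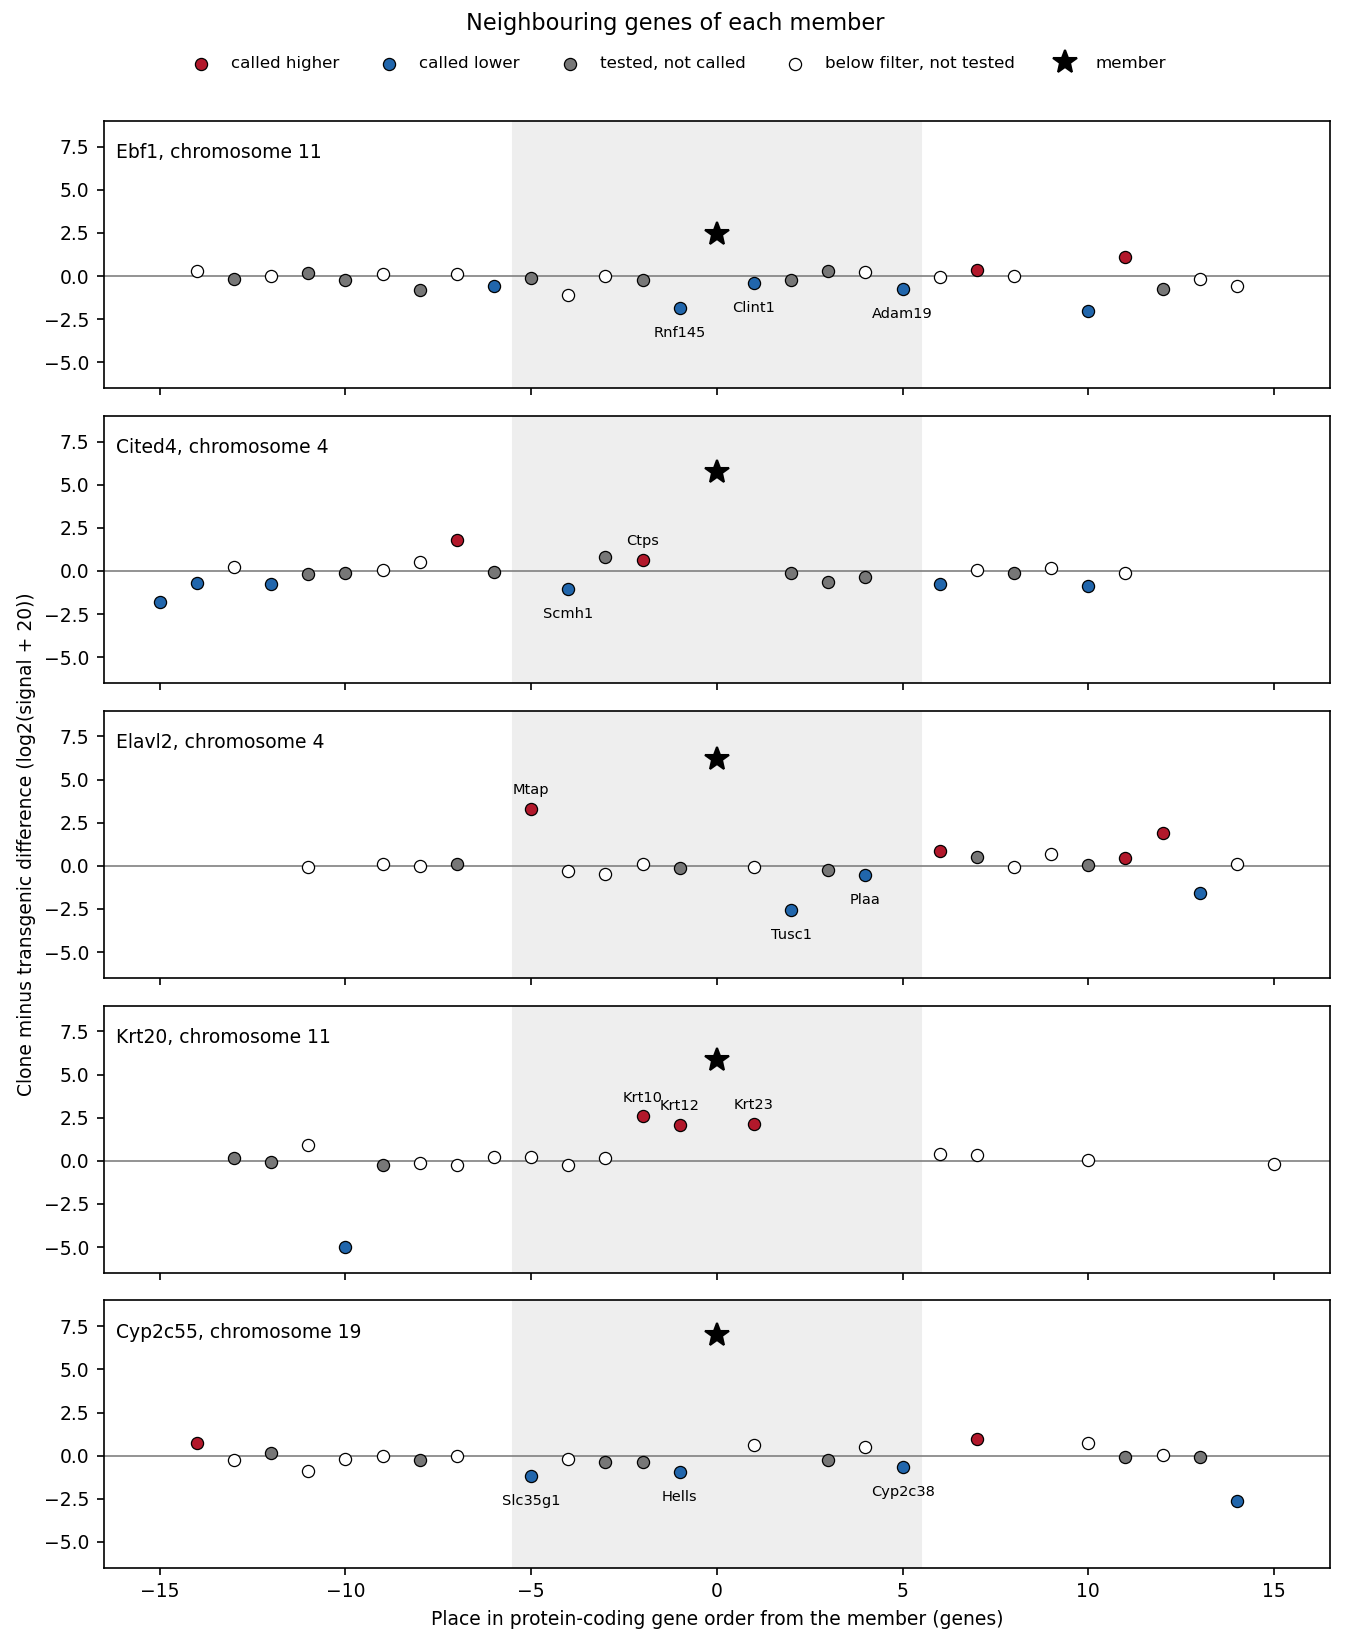
Difference of mean log2(signal + 20), clone minus transgenic, of each measured protein-coding gene by its place in gene order from each of the 5 genes (star); the grey band is 5 genes on each side, points are coloured by call and open points lie below the filter. In the Krt20 panel 3 neighbours stand at 2.09 to 2.57, in the Elavl2 panel Mtap stands alone at 3.29, and the neighbours of Ebf1 and Cyp2c55 inside the band include none called higher.

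A pattern of dim mouse cultures and bright vials was uncommon on the array. Both transgenic arrays under 20 and all clone arrays over 1000, levels set after the values were seen, were met by 7 probe sets, of Cited4, Elavl2, Cyp2c55, Csf2, Tnfsf11, Trpc6 and Xist. The reverse pattern, with the clone dim and the transgenic arrays bright, was met by 15 probe sets. Krt20 falls outside because its transgenic signals were 47.3 and 39.2. Sex was not among the sample variables used here, so its part in the Xist difference, or in any other, was not tested.

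By Euclidean distance of log2(signal + 20) over the 5 arrays, a measure that takes in level as well as difference, the genes closest to each were found. Cited4 and Elavl2 were close to each other (0.595), and Krt20 and Cyp2c55 were 1.35 apart. Ebf1 was 5.03 to 7.66 from the other 4. Nearest to Cited4 were Tnfsf11, which encodes the cytokine RANKL (0.797), Rnf152 (0.976) and Wwtr1 (0.985), and the same 3 were nearest to Elavl2 (1.05 for Tnfsf11). Nearest to Cyp2c55 were the channel gene Trpc6 (1.25), Csf2, which encodes the cytokine GM-CSF (1.41), and Cdk14 (2.02). Nearest to Krt20 were BC064078 (0.994), Cdk14 (1.43) and Akr1c12 (1.69), and nearest to Ebf1 were 5330434G04Rik (0.730), Ephb6 (0.734) and Dmrt2 (0.793). These distances share the same 5 arrays and are a description.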

How the data were processed

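Each of 5 cultures (3 of the clone, 2 of transgenic mice, grouped by sample title) gave 8 µg of total RNA for biotin-labelled cRNA, hybridised to a one-colour Affymetrix array. The authors deposited 1 linear intensity for each probe set, made with GCOS per the submitters' processing notes. Their 2% trimmed mean is 500 on every array, so they were used as deposited. No detection calls are given, so the values do not say what was above background. Precision is limited by the 5 arrays.

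Probe sets with a mean signal of at least 88.2 (40th percentile) were kept, each gene by its brightest, and log2(signal + 20) was compared with limma 3.58.1 in R 4.3.3 (lmFit, eBayes with trend, two-sided), with Benjamini-Hochberg adjustment over 12446 genes and calls under 0.05. Each gene has 3 residual degrees of freedom, and variance borrowed by limma from the other genes raised the median total to 8.36. The p-values reflect only how the vials of 1 clone, and the 2 mice, differ among themselves, over all genes tested as well as the gene itself. The script was tested on simulated data.

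The 5 genes and all lists were chosen with earlier results of these data known. Named are every probe set of the 5 genes, up to 4 called genes per related list with the largest differences (up to 2 uncalled ones of highest signal where fewer than 2 were called), called and nearest measured neighbours, and the 3 genes most alike. Some genes outside this rule, such as family members and genes whose probe sets disagree, were named after their values were seen. Neighbour order and promoters are from RefSeq, GRCm38.p6. Alternatives were other normalization, pseudocounts, filters, probe set rules and variance priors, the replicate block and each array left out. Replicate numbers are in both groups' titles, but vials and mice share only a number. Figures were drawn with matplotlib 3.10.9.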

Additional observations from a re-analysis of the deposited data

How the results depend on the processing

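The directions of all 5 genes' differences held in every alternative that gave a value. Because the genes were chosen for this contrast, that is a description and not support. The sizes of the differences depended on the pseudocount. With a pseudocount of 1 the differences were 3.30 for Ebf1, 7.25 for Cited4, 9.19 for Elavl2, 6.38 for Krt20 and 8.09 for Cyp2c55, and with 50 they were 1.81, 4.74, 5.00, 5.32 and 6.10. The mean over the probe sets that passed the filter gave 2.02 for Ebf1 and 3.20 for Elavl2. It leaves out dim probe sets, among them 1457441_at of Ebf1 and 1438261_at of Cited4, which overlapped between the groups. Disagreement of those probe sets therefore could not show in it. A filter at the 60th percentile left Ebf1 out. That filter, which tests fewer genes, gave 3 related genes higher and 5 lower and 3 neighbours higher. With 15 neighbours on each side, added after the data were seen, 13 were higher and 19 lower. Leaving out each array in turn gave 1895 to 2752 genes higher and 1768 to 2740 lower in the whole table, 7 to 9 related genes higher and 6 to 10 lower, and 4 to 5 neighbours higher and 6 to 9 lower. The lowest count, 1768, came without transgenic array 1. Of the 25 called related genes and neighbours, 18 kept their call in every alternative that tested them. With the replicate block the counts were 2282 higher and 2351 lower in the whole table, 9 and 8 for related genes and 5 and 7 for neighbours. The difference of replicate 1 and 2 in the mice and in the vials correlated at -0.06 over 12446 genes, with 2 shared numbers. Low signals have no known background, so values under the filter have no order.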
